A study of Sus scrofa with 30 samples.

Results

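The genes described here belong to bile acid synthesis, its feedback control, conjugation and export in the liver of female pigs. They were 7 rows of the 19864 in the processed table that the authors deposited, chosen by the human protein identifiers that table uses. The rows were named as CYP7A1 (ENSP00000301645), CYP8B1 (ENSP00000318867), CYP27A1 (ENSP00000258415), NR0B2 (ENSP00000254227), BAAT (ENSP00000259407), ABCB11 (ENSP00000263817) and SLC10A1 (ENSP00000216442). Of these, 5 were well above background in all 30 livers, CYP8B1 lay near background in most, and the name SLC10A1 was not borne out by the probes. The 7 names are those of the rule, and no pig transcript or protein table was used here to check them against the probes.

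Bile acids are made from cholesterol in hepatocytes, conjugated to glycine or taurine, and pumped into the bile canaliculus. CYP7A1 sets the rate of the classical pathway, CYP27A1 acts on the sterol side chain and opens the alternative pathway, and CYP8B1 adds the hydroxyl group that makes cholic acid. The nuclear receptor FXR senses returning bile acids and induces NR0B2 (SHP), a repressor of CYP7A1, as well as ABCB11 (BSEP), the export pump. Pigs form hyocholic acid in place of cholic acid.

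The study sampled liver from 30 pigs, 3 in each of 10 groups, with 1 pig per single-colour Agilent array. Littermates had been selected for normal (N, 1.4 to 1.6 kg) or low (U, 0.8 to 1.1 kg) weight at birth. The N_T1 and U_T1 pigs were taken before any restriction (T1, day 76 in the sample labels). The NR_T2 and UR_T2 pigs were taken at the end of a restriction of 3 weeks on 50% of the ad libitum intake (T2, day 97), beside ad libitum controls NK_T2 and UK_T2. The NR_T3, UR_T3, NK_T3 and UK_T3 pigs of the same 4 treatments were taken after a further 5 weeks in which all ate ad libitum (T3). For T3 the sample labels give day 103 and the series text day 131. The diet itself also changed between the periods, and no label links pigs across time points. Age, diet and time point therefore cannot be told apart.

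Levels are intensities of the authors' table or their log2 values, and a difference of 1 on the log2 scale is a doubling. That table had been scaled separately in 4 sets (T1, N at T2, U at T2, and T3), so groups were compared within a set. The sets were bridged only through the scanner files, as log2 signal minus the 75th percentile of the same array. Between 53.6% and 74.3% of the probes on an array were well above background. The 3 N_T1 columns of the table held one another's arrays: the column of replicate 1 matched the scanner array of replicate 2, that of replicate 2 matched replicate 3, and that of replicate 3 matched replicate 1. The other 27 columns matched their own array. The exchange stays inside N_T1 and leaves its mean as it was, and replicate numbers of table values below are those of the table. Hepatocyte and other cell type markers were not analysed here, since no table used here pairs the rows with gene symbols, and in whole tissue fewer cells of a type and less RNA per cell cannot be told apart.

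Each member row equalled the median of 3 consecutively numbered probes of 60 bases, to within 0.02 on the log2 scale (root mean square). The probes are shown because they decide what each row measures. Capitals mark the motif AATAAA, the usual polyadenylation signal, in a CYP7A1 probe, and the lines for CYP7A1, NR0B2 and the first BAAT probe show 30 bases of the probe. Sequences run 5′ to 3′ as in the scanner files.
CYP7A1, PigEx0037459: gctttcggcaatcctgtccatactttcttt
CYP7A1, PigEx0037457: cagaAATAAAagtgtaaatttattatgttt
CYP27A1, PigEx0023298: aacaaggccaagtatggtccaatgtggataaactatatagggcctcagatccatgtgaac
CYP8B1, PigEx0007706: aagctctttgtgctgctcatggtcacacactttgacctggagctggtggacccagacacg
NR0B2, PigEx0038147: aattgggctacaccctatcttggccttcct
BAAT, PigEx0033800: tatggatgtcaatggaagaggaggccatcc
BAAT, PigEx0033802: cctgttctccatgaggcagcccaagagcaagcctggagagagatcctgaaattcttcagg
ABCB11, PigEx0042369: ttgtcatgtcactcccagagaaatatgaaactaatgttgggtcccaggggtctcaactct
ENSP00000216442, PigEx0051540: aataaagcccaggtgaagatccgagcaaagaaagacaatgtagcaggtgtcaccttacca
The motif AATAAA was present in 4.79% of the 60900 probes, read on the printed strand only. PigEx0037457 ends in 6 A bases and was dimmer than the other CYP7A1 probes, with a median signal of 322 against 3014 for PigEx0037458 and 2465 for PigEx0037459. The brighter pair correlated at 0.992 over the 30 arrays, and each correlated with the dim probe at 0.864 and 0.826. For CYP7A1, NR0B2 and ABCB11, 2 runs of probes matched the row equally well, and the run whose probes correlated best was taken. Whether PigEx0037457 belongs to the CYP7A1 row was therefore not settled. The BAAT row equalled PigEx0033800 on 16 of 30 arrays and PigEx0033801 on 14, to within 0.03 on the log2 scale. It correlated with them at 0.91 and 0.94, so the choice of PigEx0033800 as the matched probe was close. PigEx0033800 correlated at 0.597 with PigEx0033802 and 0.709 with PigEx0033801, while those 2 correlated at 0.974 with each other. The motif also opens the probe of ENSP00000216442, whose other low probe, PigEx0051539, was well above background on 0 of 30 arrays. The neighbouring PigEx0051538 was well above background on 30 of 30 arrays, with a median signal of 102, and correlated at 0.10 with the row. The row matched the runs with and without that probe equally well, so whether it belongs to the row was not settled. The stretch encoded by the printed probe was not recognised as the sodium taurocholate cotransporter SLC10A1, and no protein table was at hand to settle its gene. That row is therefore called by its identifier.

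CYP7A1 was the most variable of the 5 genes well above background. Its scanner level ran over 6.27 on the log2 scale from the lowest to the highest of the 30 livers, a 77.1-fold range, against 11.4-fold for NR0B2, 4.89-fold for BAAT, 3.83-fold for CYP27A1 and 2.95-fold for ABCB11. Much of that range lay among pigs of the same group. In the authors' table, the highest of the 3 UK_T2 livers was 21.3 times the lowest, and the highest NR_T3 liver was 19.3 times the lowest. The tightest group was NR_T2, with a ratio of 1.17.

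**Figure D1:**
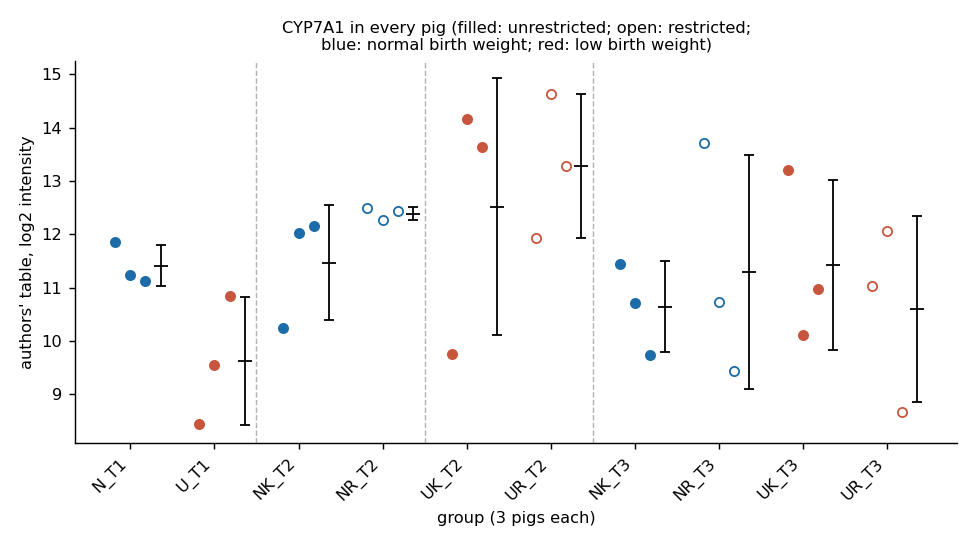
Log2 intensity of CYP7A1 in the authors' table for each of the 30 pigs, by group; bars at the right of each group give the mean and SD of its 3 pigs, and dashed lines separate sets that were scaled apart. The 3 U_T1 pigs sit below the 3 N_T1 pigs, and single low or high pigs widen UK_T2 and NR_T3.

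The SD of CYP7A1 between pigs of a group was 0.89 on the log2 scale at T1, 1.48 at T2 and 1.67 at T3. Among the 1000 rows closest to it in mean level, 98.3%, 99.8% and 100% had a smaller SD at the 3 times. NR0B2 had SDs of 0.68, 0.85 and 0.79, above 94.3%, 98.2% and 94.3% of its neighbours in level. BAAT had 0.57, 0.78 and 0.57, above 90.8%, 97.5% and 85.4%. CYP27A1 (0.23, 0.45 and 0.46) and ABCB11 (0.42, 0.36 and 0.36) varied less than these 3 genes at every time point. CYP8B1, near background, had an SD of 1.76 at T3. The replicates are separate pigs, so this spread holds differences between animals as well as array error.

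**Figure D2:**
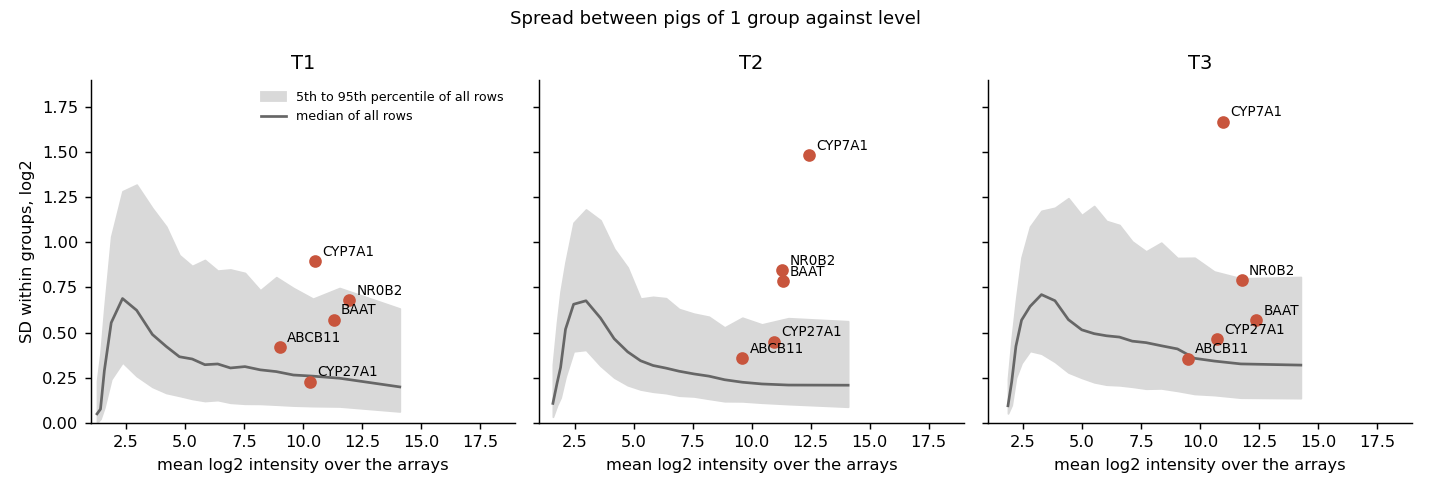
SD between pigs of a group (log2) against mean log2 intensity at T1, T2 and T3, with the median and the 5th to 95th percentile of all 19864 rows in grey and 5 bile acid genes in red. CYP7A1 lies above the grey band at all 3 times, at 0.89, 1.48 and 1.67.

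Before restriction, the comparison asked whether livers of low birth weight pigs differed from those of normal birth weight pigs. CYP7A1 measured 348, 753 and 1843 in the 3 U_T1 pigs and 3693, 2419 and 2240 in the 3 N_T1 pigs. All U values lay below all N values, a placement that 2.96% of the 19864 rows shared. The difference was -1.79 on the log2 scale (SE 0.63, 95% interval -3.36 to -0.22), or 3.46-fold lower in U_T1. It did not pass the adjustment over all rows (limma, unadjusted p = 0.0320, Benjamini-Hochberg adjusted p = 1).

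NR0B2 measured 5781, 6652 and 3548 in U_T1 and 5950, 2590 and 1958 in N_T1. The groups overlapped, and the difference of 0.73 had an interval of -0.48 to 1.93. BAAT, which joins bile acids to glycine or taurine, was at 1396, 2861 and 2629 in U_T1 and 3332, 3949 and 1846 in N_T1, with a difference of -0.40 (-1.42 to 0.62). CYP27A1 differed by -0.29 (-0.75 to 0.17) and ABCB11 by -0.02 (-0.79 to 0.74). CYP7A1 thus had the widest difference, and its interval alone among the 5 excluded 0.

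At T1 limma called 0 of the 7 rows and 0% of all rows at an adjusted p under 0.05. At an unadjusted p under 0.05 the count was 1 of 7, against 2.86% of all rows. The median difference of the 5 genes was -0.29, beside -0.01 over all rows. Of the arrays behind these values, 4 lay on slide 1 and 2 on slide 2. Within slide 1 (2 U against 2 N) the CYP7A1 difference was -2.55, and within slide 2 (1 against 1) it was -0.28. With slide as a block its unadjusted p was 0.0386, and without U_T1 replicate 1 the difference was -1.21. The numbers in the scanner files paired the T1 arrays, with correlations of 0.42, 0.44 and 0.31 between same-numbered deviations, and a block on them gave CYP7A1 an adjusted p of 0.882 (limma).

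**Figure D3:**
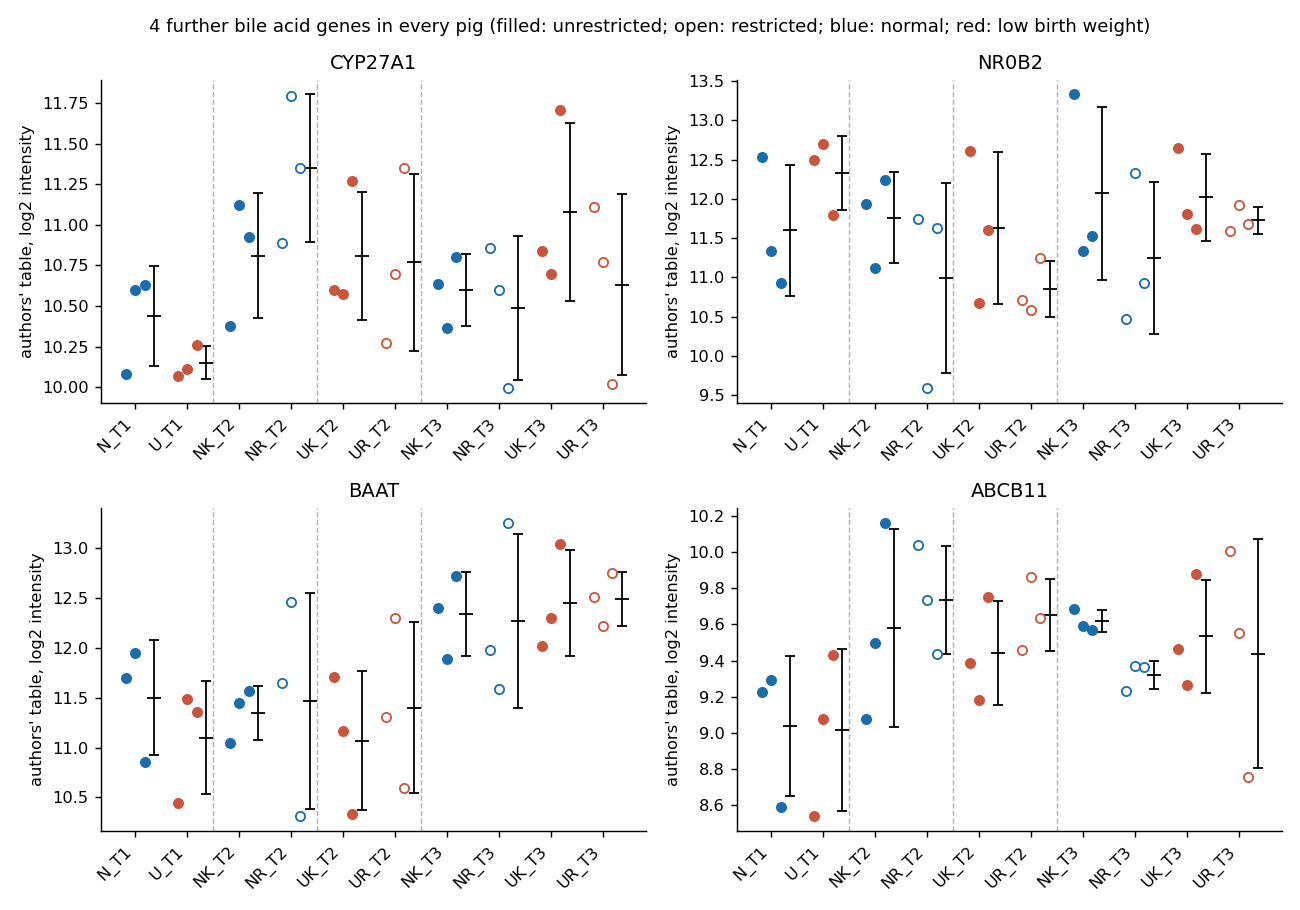
Log2 intensity of CYP27A1, NR0B2, BAAT and ABCB11 in the authors' table for each of the 30 pigs, with mean and SD per group; dashed lines separate sets that were scaled apart. The restricted and control groups overlap in each panel, other than NR_T3 below NK_T3 for ABCB11.

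At the end of restriction, NR_T2 was set against NK_T2 and UR_T2 against UK_T2. CYP7A1 measured 5746, 4903 and 5522 in the NR_T2 pigs and 1206, 4160 and 4556 in the NK_T2 pigs. All restricted values lay above all control values, as they did for 4.09% of all rows. In low birth weight pigs it measured 3909, 25409 and 9903 in UR_T2 and 863, 18366 and 12714 in UK_T2. These groups overlapped.

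The log2 differences for CYP7A1 were 0.92 (-1.46 to 3.30) in normal and 0.76 (-1.62 to 3.14) in low birth weight pigs. Their mean was 0.84, with an interval of -0.84 to 2.52 and an adjusted p of 0.790 by limma. Without NK_T2 replicate 1, the low liver at 1206, the difference in normal birth weight pigs was 0.31. That liver was on slide 1, and the other NK_T2 livers were on slide 5. On slide 5, with 1 NR_T2 pig against 2 NK_T2 pigs, the difference was 0.17. Within slides the low birth weight difference was 4.88 on slide 1 and -2.23 on slide 2, with 1 pig against 1 on each. The sign of that comparison therefore differed between the slides.

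NR0B2, the repressor, had lower means under restriction at both birth weights. It measured 3423, 772 and 3181 in NR_T2 against 3920, 2224 and 4833 in NK_T2. In low birth weight pigs it measured 1676, 1536 and 2436 in UR_T2 against 6259, 1638 and 3120 in UK_T2. Both pairs of groups overlapped. The log2 difference was -0.78 at each birth weight. Single livers set its size: without NR_T2 replicate 2, the liver at 772, it was -0.08 in normal birth weight pigs, and without UK_T2 replicate 1, the liver at 6259, it was -0.29 in low birth weight pigs. The mean over both was -0.78 (-1.75 to 0.19, adjusted p = 0.663 by limma). The restriction difference in low minus normal birth weight pigs was -0.01, with a wide interval of -1.95 to 1.93.

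CYP27A1 measured 1896, 3553 and 2615 in NR_T2 against 1332, 2233 and 1942 in NK_T2, a difference of 0.54 (-0.21 to 1.29). In low birth weight pigs it measured 1235, 1657 and 2609 in UR_T2 against 1551, 1525 and 2465 in UK_T2, a difference of -0.04. The 2 differences were not shown to differ (-0.58, interval -1.64 to 0.48). ABCB11 differed by 0.16 and 0.21, and BAAT by 0.12 and 0.33. BAAT spread most within the restricted groups, from 1270 to 5614 in NR_T2 and from 1544 to 5029 in UR_T2. With slide as a block, the BAAT difference between NR_T2 and NK_T2 was 1.03, still with an adjusted p of 0.698 (limma).

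Limma called 0 of the 7 rows and 0% of all rows in NR_T2 against NK_T2, in UR_T2 against UK_T2, in their mean and in their difference. At an unadjusted p under 0.05 the counts were 0 of 7 in each, against 7.27%, 4.17%, 8.43% and 3.4% of all rows. The mean restriction difference was above 0 for 4 of the 5 genes, beside 45.8% of all rows, and its median was 0.23 beside -0.02. The 4 signs held in 22 alternative settings other than 1 for BAAT.

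**Figure D4:**
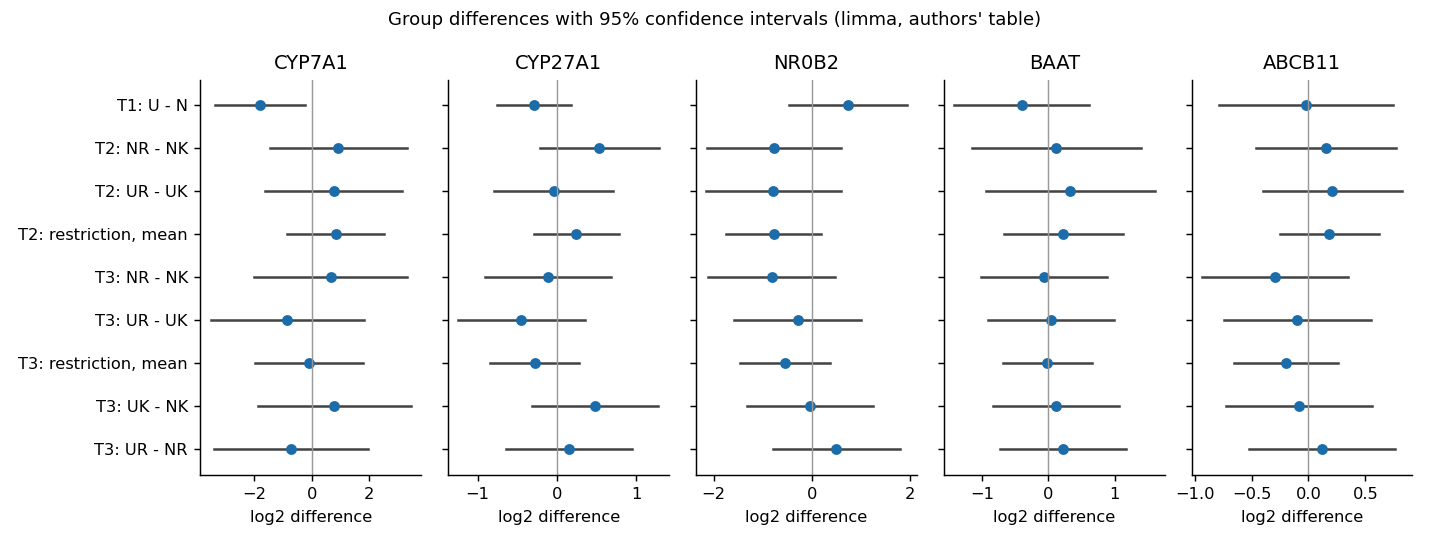
Log2 differences between groups within a set for 5 bile acid genes, with 95% confidence intervals from limma; each panel has its own scale. The T1 difference of CYP7A1, -1.79, is the single point whose interval leaves out 0.

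After refeeding, formerly restricted pigs were compared with their controls at T3. CYP7A1 measured 13429, 1694 and 695 in NR_T3 and 2791, 1682 and 857 in NK_T3. It measured 2092, 4292 and 406 in UR_T3 and 9412, 1109 and 2004 in UK_T3. A single liver stood far above the other 2 in NR_T3 and in UK_T3. The differences were 0.66 (-2.01 to 3.33) and -0.84 (-3.51 to 1.83), and their mean was -0.09. Each sign rested on 1 liver: without NR_T3 replicate 1 the first difference was -0.55, and without UR_T3 replicate 3 or UK_T3 replicate 1 the second was 0.12 or 0.05.

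ABCB11 measured 601, 661 and 659 in NR_T3 and 824, 773 and 760 in NK_T3. All NR values lay below all NK values, as in 5.17% of all rows, and both groups were tight. The difference was -0.30 (-0.94 to 0.35), or 1.23-fold lower, with an adjusted p of 0.908 by limma. In low birth weight pigs ABCB11 measured 1028, 751 and 433 in UR_T3 and 707, 615 and 940 in UK_T3, which overlapped.

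NR0B2 measured 1422, 5167 and 1948 in NR_T3 and 10307, 2588 and 2956 in NK_T3, a difference of -0.82 (-2.11 to 0.47). The liver at 10307 was the highest in the table for this gene, and without it the difference was -0.19. Its array, NK_T3 replicate 1, was alone in its scan and had 94 outlier spots, with 55% of its probes well above background. The part of the array in that value was not tested. In low birth weight pigs NR0B2 measured 3095, 3891 and 3287 in UR_T3 and 6437, 3591 and 3130 in UK_T3. The difference there was -0.29 (-1.58 to 1.0). CYP27A1 differed by -0.12 and -0.45 and BAAT by -0.07 and 0.04 in normal and low birth weight pigs. Averaged over birth weights, all 5 genes had differences below 0, from -0.56 for NR0B2 to -0.01 for BAAT, while 48.1% of all rows were above 0. BAAT changed sign in 12 of 22 alternative settings and CYP7A1 in 5, and the other 3 genes in 0.

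Birth weight was also compared within each treatment at T3. In controls, UK_T3 minus NK_T3 was 0.79 (-1.88 to 3.46) for CYP7A1 and 0.48 (-0.32 to 1.27) for CYP27A1. In formerly restricted pigs, UR_T3 minus NR_T3 was -0.71 (-3.38 to 1.96) for CYP7A1 and 0.49 (-0.80 to 1.78) for NR0B2. The other differences of the 5 genes lay between -0.08 and 0.22. At T3 the CYP7A1 birth weight difference thus had opposite signs in the 2 treatments in this fit, and each interval held 0. The signs did not hold in other settings. With slide as a block both differences were above 0, at 0.20 in controls and 0.47 in formerly restricted pigs. In formerly restricted pigs it was also 0.50 without NR_T3 replicate 1 and 0.26 without UR_T3 replicate 3. In controls it ran from -0.09 to 1.45 with an array left out. Whether the difference at T1 changed by T3 was not tested.

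At T3 limma called 0 of the 7 rows and 0% of all rows in each of the 6 comparisons. At an unadjusted p under 0.05 the count was 0 of 7 in each, beside 4.61% of all rows for restriction at normal birth weight, 1.91% at low birth weight, 2.64% for their mean and 3.01% for their difference. For birth weight it was beside 3.44% in controls and 2.09% in formerly restricted pigs. NK_T3 replicate 1 was the only array of its scan. Every replicate 3 array of T3 lay on slide 6 and was scanned apart from the rest. On that slide, with 1 pig a group, the CYP7A1 restriction difference was -0.30 at normal and -2.30 at low birth weight. On slide 4 the latter was 1.95, again 1 pig against 1.

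Time points were compared through the single probe of each gene that equalled its row on the most arrays. The comparison was on the scanner scale, over 6 arrays of both birth weights at each time. From T1 to the end of restriction at T2, CYP7A1 in restricted pigs had a difference of 2.32 (SE 0.79, interval 0.69 to 3.94), a 4.98-fold higher level. This averages unequal steps: group means were 2.69 in N_T1 and 3.57 in NR_T2, against 0.88 in U_T1 and 4.63 in UR_T2. Whether the steps differ between birth weights was not tested. All 6 restricted livers lay above all 6 livers of T1, as for 1.1% of probes tested. CYP27A1 differed by 0.74 (0.26 to 1.23), ABCB11 by 0.65 (0.21 to 1.09) and NR0B2 by -1.06 (-1.95 to -0.18). BAAT differed by -0.02 (-0.70 to 0.66).

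These 4 intervals left out 0, yet none of the differences passed the adjustment over all probes by limma. The adjusted p was 0.167 for CYP7A1, 0.125 for CYP27A1, 0.144 for ABCB11 and 0.273 for NR0B2. Limma called 0 of the 5 genes tested and 1.41% of all probes. At an unadjusted p under 0.05 it was 4 of 5, against 12.1%. All 3 probes taken for CYP7A1 had like values, between 2.28 and 2.56, though whether PigEx0037457 belongs to the row was not settled. For CYP8B1 and ENSP00000216442 the probe that matched each row failed the filter on dim probes. A second CYP8B1 probe, PigEx0007707, well above background on 17 of 30 arrays, passed it. It did so because every array of at least 1 group was well above background, while its median signal was 20.0. Time differences on it can set such groups against levels near background, so none is given.

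Controls were followed over the same interval. Between T1 and T2 the differences in controls were 1.46 (-0.16 to 3.09) for CYP7A1, 0.52 (0.03 to 1.0) for CYP27A1, 0.48 (0.04 to 0.92) for ABCB11, -0.27 for NR0B2 and -0.12 for BAAT. For CYP7A1 the control means were 2.66 in NK_T2 beside 2.69 in N_T1, and 3.83 in UK_T2 beside 0.88 in U_T1. Limma called 0 of 5 and 0.229% of probes, and at an unadjusted p under 0.05 the count was 2 of 5 against 9.76%. Restricted and control pigs share the T1 arrays in these comparisons, and what separates them is the restriction difference at T2 given above. Within slides, the restricted CYP7A1 difference was 4.43 on slide 1 (1 array against 4) and 1.24 on slide 2 (2 against 2). In controls it was -0.26 on slide 1 (2 against 4) and 3.19 on slide 2 (1 against 2). With slide as a block, the restricted differences were 1.59 for CYP7A1, 0.37 for CYP27A1, 0.61 for ABCB11, -0.88 for NR0B2 and 0.52 for BAAT, the last with an unadjusted p of 0.0394 and an adjusted p of 0.303 (limma). In controls they were then 1.06 for CYP7A1, 0.14 for CYP27A1, 0.29 for ABCB11, 0.11 for NR0B2 and -0.09 for BAAT.

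**Figure D5:**
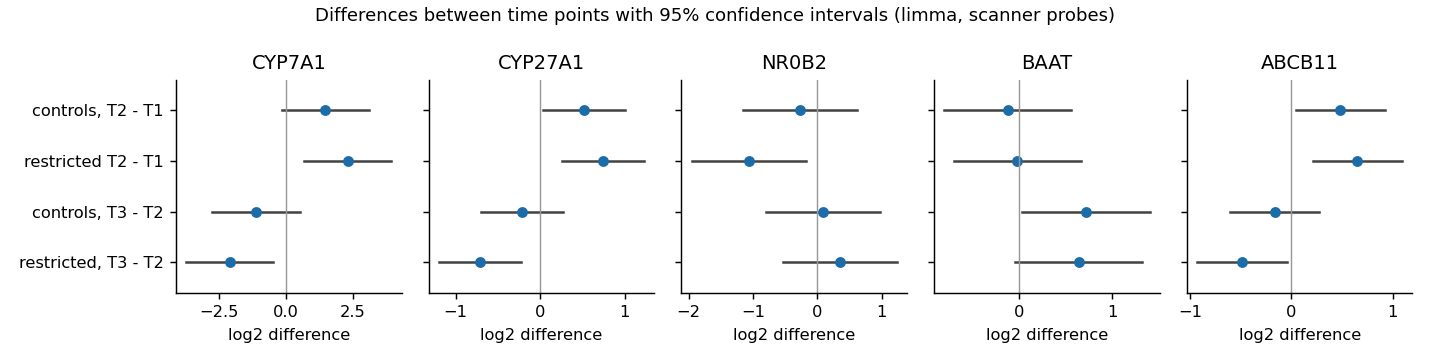
Log2 differences between time points for 5 bile acid genes on the scanner scale, with 95% confidence intervals from limma; controls and restricted pigs share the T1 arrays. For CYP7A1 the restricted pigs were at 2.32 from T1 to T2 and at -2.09 from T2 to T3.

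From T2 to T3 the values in pigs that had been restricted were -2.09 (-3.72 to -0.46) for CYP7A1, -0.71 (-1.20 to -0.22) for CYP27A1 and -0.49 (-0.93 to -0.05) for ABCB11. NR0B2 differed by 0.35 and BAAT by 0.64 (-0.04 to 1.32). The T2 arrays of restricted pigs enter both steps, with opposite signs, so the steps are not independent. Limma called 0 of 5 and 0.979% of probes. At an unadjusted p under 0.05 it was 3 of 5 against 13.9%.

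In controls the T2 to T3 differences were -1.12 (-2.74 to 0.51) for CYP7A1, -0.21 for CYP27A1, -0.16 for ABCB11, 0.10 for NR0B2 and 0.72 (0.04 to 1.40) for BAAT. Limma called 0 of 5 and 5.57% of probes. At an unadjusted p under 0.05 it was 1 of 5 against 20.8%. With slide as a block, BAAT at T3 minus T2 was 1.64 in controls (adjusted p = 0.00283, limma) and 1.03 in restricted pigs (adjusted p = 0.0311), and CYP27A1 in restricted pigs was -0.92 (adjusted p = 0.0422). These 3 were the only calls of a matched row or probe under the settings run. The BAAT calls depended on the probe. In controls PigEx0033801 gave 1.09 (adjusted p = 0.0468) and PigEx0033802 gave 0.78 (adjusted p = 0.157) by limma with the same block. In restricted pigs they gave 0.52 (adjusted p = 0.342) and 0.32 (adjusted p = 0.615). The other 2 CYP27A1 probes gave -0.89 and -0.94 (adjusted p = 0.0405 and 0.0348, limma). PigEx0051538, beside the probes of ENSP00000216442, gave 0.73 in controls with the slide block (adjusted p = 0.0251) and 0.49 without it (adjusted p = 0.0523, limma). Within slides, BAAT in restricted pigs was 1.46 on slide 3 (2 against 2) and -0.05 on slide 5 (1 against 1), and in controls it was 1.64 on slide 4 (3 against 1). The part of the slides in these differences was not tested further.

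Over the 10 groups, scanner levels of CYP7A1 ran from a mean of 4.63 ± 1.35 (SD, n = 3) in UR_T2, through 3.83 ± 2.38 in UK_T2 and 3.57 ± 0.15 in NR_T2, to 0.88 ± 1.19 in U_T1. The order between was N_T1, NK_T2, UK_T3, NR_T3, NK_T3 and UR_T3. Only 1 of the 9 steps between neighbours, NR_T2 over N_T1 by 0.88, exceeded the larger SD of its pair. For NR0B2 the order was U_T1 at the top (3.62 ± 0.53) and NR_T2 at the bottom (2.17 ± 1.22). BAAT ran from 3.28 ± 0.29 in UR_T3 to 2.26 ± 0.55 in UK_T2, with the 4 T3 groups in the top 4 places. ABCB11 ran from 0.99 ± 0.20 in UR_T2 to 0.28 ± 0.45 in U_T1, with the 4 T2 groups in the top 4 places. CYP27A1 ran from 2.51 ± 0.43 in NR_T2 to 1.43 ± 0.07 in U_T1. For these 4 genes 0 of the 9 steps exceeded the larger SD.

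CYP8B1 stayed low. Its row ran from 3.4 to 88.0 with a median of 8.4, and at least 2 of its 3 probes were well above background on 10 of the 30 arrays. Those 10 arrays came from 9 groups, with 2 in NR_T3 and 0 in UK_T2. The highest values were 88.0 in NR_T3 replicate 1 and 64.2 in UR_T3 replicate 1. No fold is given between such levels. ENSP00000216442 ran from 2.5 to 27.8 with a median of 3.45, and its highest value was in NR_T2 replicate 3.

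Across the 30 livers, log2 values centred within each set gave a correlation of 0.44 between CYP7A1 and CYP27A1, 0.43 between CYP27A1 and ABCB11 and 0.38 between CYP7A1 and ABCB11. Over all rows the 95th percentile of the absolute r was 0.47 for CYP7A1 and 0.46 for CYP27A1, above each of these. With the sign kept, 96.1% of all rows had a lower r to CYP7A1 than CYP27A1 had. For ABCB11 that share was 93.1% in its r to CYP7A1 and 96.1% in its r to CYP27A1. CYP7A1 and NR0B2 correlated at -0.26, and 16.7% of all rows had a lower r to CYP7A1. Their correlation was -0.48 at T1 and -0.26 among the N livers of T2. It was -0.77 among the 6 U livers of T2 and 0.09 among the 12 livers of T3. All points share the arrays' scaling, and group differences were left in. BAAT correlated with CYP7A1 at -0.10. The rows most like CYP7A1 over the 30 arrays were ENSP00000308533 (r = 0.79) and ENSP00000398053 (r = 0.77), for which no symbol is given here. Of the 14 most alike rows of the members, 2 for each, 0 were members themselves.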

How the data were processed

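Total RNA of 30 pig livers was hybridised in 1 colour (Cy3) to 30 arrays of 60900 pig probes, per the labels' protocols and the file headers. The scanner files hold intensities that the authors produced with Agilent Feature Extraction 10.5.1.1 (protocol GE1_107_Sep09), background subtracted within each array, per the file headers. The table of 19864 rows that the authors deposited holds linear intensities whose making is not given in the sources used here. Of its rows, 93.9% equalled the median of 3 consecutive probes after quantile normalization within each of 4 sets of arrays (root mean square difference under 0.02 in log2). No genome build is named in the sources used here, so no coordinates are given.

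Group comparisons within T1, T2 or T3 used limma 3.58.1 in R 4.3.3 on log2 of the table, with 1 fit for each time point (lmFit on group means, contrasts.fit, eBayes) and every row tested. At T2 the averaged difference is the mean of the differences within both sets. Time comparisons used 1 fit of all 30 arrays on log2 of the scanner signal minus the array's 75th percentile, over the 41061 probes well above background on every array of at least 1 group. Spots with an outlier mark were set to missing. P-values are two-sided and Benjamini-Hochberg adjusted over all rows or probes, and a call is an adjusted p under 0.05. All 7 members were named whatever their values, with the 2 rows most alike by correlation of set-centred log2 values. The members and lists were chosen with earlier results of these data known. The further bile acid pathway genes and the cell type markers were not analysed here, because no table used here pairs rows with symbols.

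The alternatives were a block for slide, for scan or for replicate number, other scalings, filters and offsets (50), scanner probes, a joint fit and leaving out each array. A block on the scanner files' replicate numbers at T1 was added after the data were seen. The labels give no meaning to equal replicate numbers. Same-numbered arrays deviated together (every correlation above 0.1) in 8 of 13 pairs of groups, and at T1 they did so only by the scanner files' numbers. At T3 every replicate 3 array lay on slide 6, so number and slide coincided there, and the part of each was not tested. The number of arrays, 3 a group, limits the precision. Python 3.11.15 with numpy 2.4.6, pandas 2.3.3, Biopython 1.88 and matplotlib 3.10.9 made the summaries and plots.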

Additional observations from a re-analysis of the deposited data

How the results depend on the processing

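The count of members called was 0 in 270 of 272 alternative fits of the 15 comparisons. The exceptions were with slide as a block, where 1 member (BAAT) was called in controls and 2 members (CYP27A1 and BAAT) in restricted pigs for T3 minus T2; the cause was not tested. Leaving out single arrays gave 0 members called throughout. With the replicate block, 0 members were called in each comparison, and the same held for the added block at T1. In the 11 comparisons of the table, the count over all rows was 0 in 186 of 200 alternatives and at most 3 in the rest.

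The member differences, none called in the fits of the report, kept their sign in 773 of 813 values under other settings and in 765 of 870 with an array left out. For CYP7A1 at T1 the range over all settings was -2.41 to -1.21, with unadjusted p from 0.00372 to 0.126 and adjusted p from 0.882 to 1. In restricted pigs, T2 minus T1 ranged from 1.59 to 2.65 for CYP7A1 (adjusted p 0.0857 to 0.395), from 0.37 to 0.87 for CYP27A1 and from 0.53 to 0.75 for ABCB11.

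A choice of other probes by pig protein sequence was not run, since no protein table was used here, and scan could not be a block at T1, where all arrays share 1 scan. CYP8B1 lay too near background for folds, and the row ENSP00000216442 followed probes at background.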
